A study of Mus musculus with 6 samples.

Results

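Fibroblast growth factor (FGF) signalling was followed through 9 genes, the ligands Fgf2, Fgf7, Fgf9, Fgf10 and Fgf18 and the receptors Fgfr1, Fgfr2, Fgfr3 and Fgfr4. The list was drawn up with earlier results of these data known, its genes were found by symbol, and all 9 were present among the 20637 genes listed for each library. The libraries were poly(A) RNA-seq of whole uterus from female mice at postnatal day 21, the age of weaning. In 3 of them both Nat10 alleles were floxed (Nat10 f/f, here the controls) and in 3 both were deleted (Nat10 d/d). Nat10 encodes an acetyltransferase that modifies cytidines in RNA. The comparison asked how the uterine transcriptome differs when the gene is lost. The promoter driving the recombinase, the cells it acts in, strain and litter are not given in the sources used here. Nor do these say that replicates came from separate animals, so p-values measure the spread between these samples, which may be technical.

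FGFs are secreted proteins that bind receptor tyrosine kinases together with heparan sulfate and signal through the adaptor FRS2 and the RAS-MAPK cascade. Fgf7 and Fgf10 are typically made by mesenchyme and act on the epithelial b splice form of Fgfr2, while Fgf2, Fgf9 and Fgf18 act mainly on c splice forms found in mesenchymal cells. In the adult uterus, stromal FGFs stimulate the epithelium, and progesterone restrains several of them through the stromal transcription factor Hand2. Gene-level values do not separate the splice forms.

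In RefSeq (GRCm38.p6) the ligand genes lie at chr3:37348477-37410106 (Fgf2), chr2:126034658-126091185 (Fgf7), chr14:58070671-58112854 (Fgf9), chr13:118714699-118792573 (Fgf10) and chr11:33116970-33147400 (Fgf18). The receptor genes lie at chr8:25518759-25575718 (Fgfr1), chr7:130162451-130266808 (Fgfr2), chr5:33721724-33737068 (Fgfr3) and chr13:55152818-55168759 (Fgfr4). Fgf18 and Fgfr2 are on the minus strand and the other 7 on the plus strand.

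The results turn mostly on 3 ligand genes. Fgf10 and Fgf18 were the members whose deleted and control values did not overlap, in opposite directions, and Fgf7 shares a receptor with Fgf10. The 250 bases before the RefSeq transcription start of each (build GRCm38.p6, which is mm10, the build in the submitters' processing notes) are shown to let the promoters be compared, 5′ to 3′ on the strand of the gene. They are chr13:118714449-118714698 (plus strand) for Fgf10, chr11:33147401-33147650 (minus strand) for Fgf18 and chr2:126034408-126034657 (plus strand) for Fgf7. Capitals mark every match on either strand to any of 5 motifs, the TATA box (TATAAA), the CCAAT box (CCAAT), the GC box (GGGCGG), a steroid receptor half-site (AGAACA) and the E-box of basic helix-loop-helix factors (CANNTG).
Fgf10: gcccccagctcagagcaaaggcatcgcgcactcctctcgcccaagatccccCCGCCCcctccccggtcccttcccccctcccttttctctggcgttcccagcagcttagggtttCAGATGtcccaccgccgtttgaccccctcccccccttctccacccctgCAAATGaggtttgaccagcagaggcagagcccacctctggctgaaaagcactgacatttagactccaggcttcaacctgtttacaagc
Fgf18: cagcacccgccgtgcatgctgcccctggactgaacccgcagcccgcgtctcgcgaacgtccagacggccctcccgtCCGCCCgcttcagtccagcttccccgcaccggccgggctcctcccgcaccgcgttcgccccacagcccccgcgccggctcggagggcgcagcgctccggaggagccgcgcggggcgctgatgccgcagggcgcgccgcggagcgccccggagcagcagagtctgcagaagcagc
Fgf7: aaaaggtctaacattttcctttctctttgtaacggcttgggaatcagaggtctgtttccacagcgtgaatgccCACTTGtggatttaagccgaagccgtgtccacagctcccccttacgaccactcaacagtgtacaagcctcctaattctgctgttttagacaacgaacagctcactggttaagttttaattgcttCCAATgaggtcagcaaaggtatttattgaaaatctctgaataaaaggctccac

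The windows differ mainly in base composition. The Fgf18 window held 37 CpG dinucleotides, more than 97.8% of the 32851 RefSeq promoter windows of the same length, and was 77.2% G and C. The Fgf10 window held 8 CpGs (61.2% G and C) and the Fgf7 window held 6 (43.6% G and C), against a median of 6 over all windows. The Fgf10 window had 1 GC box, beginning 199 bases before the start, and 2 E-boxes, 136 and 88 bases before it. The Fgf18 window had 1 GC box, 174 bases before the start, and no other match. The Fgf7 window had 1 CCAAT box, 53 bases before the start, and 1 E-box, 177 bases before it. None of the 3 windows held the TATA box letters or the half-site letters. Of all windows, 32.7% held the GC box, 66.2% the E-box, 33.8% the CCAAT box, 12.4% the TATA box and 16.1% the half-site, and no motif matches overlapped in the windows shown. None of the windows holds an exon annotated in GENCODE M21, which has other Fgf10 transcripts that start farther upstream. A match is a description of the letters and not evidence of binding.

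Values are FPKM-type, that is, scaled by the authors for gene length and library size, so levels of different genes can be compared. They summed to between 500764 and 549263 per library, with 15431 to 15680 genes above 0. Read depth is unknown, so no counting interval can be given, and members near a value of 1 are the least precise. Nat10 checked the labels: its values were 13.2, 16.4 and 9.95 in control replicates 1 to 3 and 5.57, 5.23 and 5.53 in deleted replicates 1 to 3, without overlap. Markers of the uterine tissues were present in every library, with summed values of 971 to 1330 for 10 epithelial genes, 3049 to 4292 for 10 stromal genes and 3838 to 4891 for 8 smooth muscle genes. Deleted replicate 2 stood apart in proliferation: the summed value of 8 cell cycle genes was 159 there, 15.6 and 7.85 in deleted replicates 1 and 3, and 63.6, 15.8 and 41.1 in the controls.

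In control uteri the receptors were dominated by Fgfr2. Its mean value was 59.6 ± 2.96 (SD, n = 3), higher than 90.3% of the tested genes, and 2.60 times that of Fgfr1 at 22.9 ± 0.676 (SD, n = 3). Fgfr3 followed at 1.73 ± 0.546 and Fgfr4 at 0.59 ± 0.075 (SD, n = 3), and the ranges of neighbouring receptors were apart in controls and in deleted uteri. Among ligands, Fgf2, the broadly acting basic FGF, led in controls with 14.9 ± 1.63, ahead of Fgf10 with 5.33 ± 1.04 (SD, n = 3). Fgf18 (3.15 ± 1.21) and Fgf7 (2.25 ± 0.147) came next with overlapping ranges, and Fgf9 was lowest at 1.18 ± 0.202 (SD, n = 3). In deleted uteri Fgf18 stood above Fgf10 in 3 of 3 libraries, with means of 5.31 and 3.45, whereas Fgf10 stood above Fgf18 in 3 of 3 controls. Fgf10 and Fgf7 overlapped in deleted uteri.

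**Figure D1:**
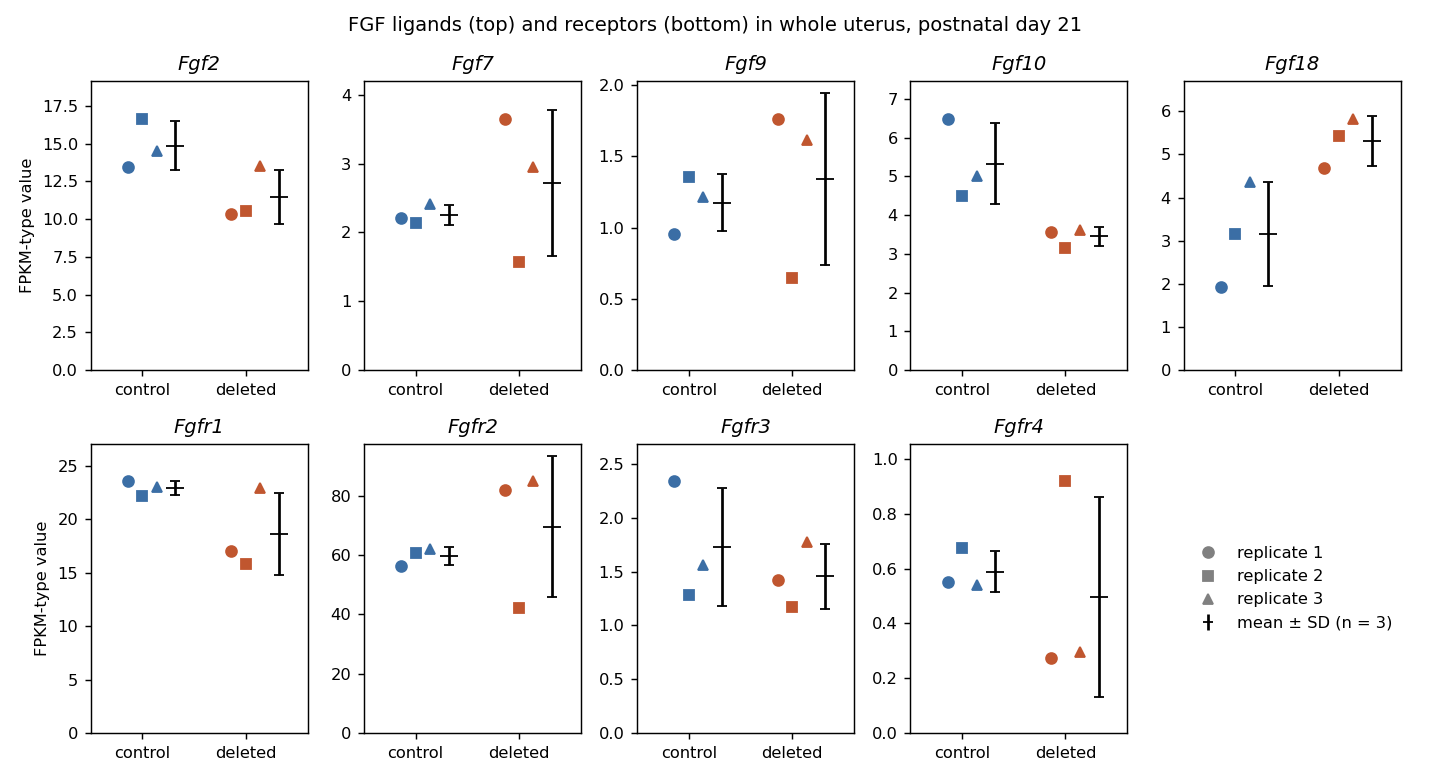
FPKM-type values of the 9 genes in each of the 6 libraries (y axis from 0, a scale for each gene), with control values in blue, Nat10-deleted values in orange, 1 marker shape for each replicate number, and bars for the mean ± SD (n = 3). Fgf10 and Fgf18 show separate groups, and for Fgf7, Fgf9 and Fgfr2 deleted replicate 2 lies below the controls while replicates 1 and 3 lie above.

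No FGF ligand or receptor differed between the groups at an adjusted p of 0.05. Of the 9 genes, 8 were tested (those reaching 1 in 3 or more libraries), and limma, a linear model fitted to log2(value + 1) of all 12640 tested genes, called 0 of 12640 genes (0%). At an unadjusted p under 0.05 there were 3 members, where 4.98% of all tested genes reached this level. Of these, Fgf10 and Fgf2 were lower in deleted uteri, as were 2.3% of all tested genes, and Fgf18 was higher, as were 2.68%. Groups did not overlap for 2 of the 8 tested members, against 10.7% of all tested genes. Fgf18 was higher in this way, against 6.12% of all tested genes, and Fgf10 lower, against 4.6%. The median log2 change of the 8 was -0.03, with 4 higher and 4 lower on average, and that of all tested genes was 0.03.

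Fgf10, the mesenchymal ligand that drives epithelial budding in many organs, had its lowest values in the deleted uteri. It was measured at 6.49, 4.49 and 5.01 in the controls and at 3.57, 3.17 and 3.62 in deleted replicates 1, 2 and 3. All deleted libraries lay below all controls, the highest of them 1.24 times below the lowest control. The deleted mean was 64.7% of the control mean. On the log2 scale the change was -0.50 (SE 0.15, adjusted p 0.922 by limma). Exact permutation, which cannot go below 0.1 for 3 against 3, returned a two-sided p of 0.1. In bulk tissue, fewer cells of a type and less RNA per cell cannot be told apart. Stromal markers were also lower in deleted uteri on average for 10 of 10 genes, with a median log2 change of -0.20 and none called. For 1 of the 10 (10%), Wnt5a, the deleted values were lower without overlap, against 4.6% of all tested genes. The summed values of the stromal markers were 3713 to 4292 in controls and 3102, 4192 and 3049 in deleted replicates 1, 2 and 3. The sum of replicate 2 lay within the controls, but the median log2 deviation of the list from the control mean was -0.40, -0.15 and -0.21 in deleted replicates 1, 2 and 3 and -0.11 to 0.09 in controls. Col1a1 and Col3a1 were highest in deleted replicate 2 and Pdgfra and Dcn lowest there. The part of stromal content in the Fgf10 value was not tested.

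Fgf18, a ligand best known from bone, cartilage and lung development, showed the opposite order. It was measured at 1.94, 3.16 and 4.35 in the controls and at 4.69, 5.42 and 5.83 in deleted uteri. The groups were separate, but by only 1.08 times between the highest control and the lowest deleted library, and the controls spread 2.25 times from lowest to highest. The deleted mean was 169% of the control mean, with a log2 change of 0.64 (SE 0.22, adjusted p 0.922 by limma, exact permutation p 0.1). Control replicate 1 had the lowest Fgf18 and the highest Fgf10 of all 6 libraries. Without it the log2 change was 0.42 for Fgf18 and -0.37 for Fgf10. The same library had the highest summed value of 4 fat markers, 51.0 against 0.979 to 9.88 elsewhere, and of 5 blood markers, 5581 against 709 to 2629. The part of these tissues in the ligand values was not tested.

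Fgf2 was measured at 13.4, 16.6 and 14.5 in the controls and at 10.4, 10.5 and 13.5 in deleted uteri. Deleted replicates 1 and 2 lay below every control, while deleted replicate 3 just exceeded control replicate 1. The deleted mean was 77.2% of control, with a log2 change of -0.35 (SE 0.14, adjusted p 0.922 by limma, exact permutation p 0.2). The direction held when each scaling was changed, and after quantile normalization, median centring or upper-quartile scaling the groups no longer overlapped. Exons of Nudt6 lie on the opposite strand and share 640 bases with those of Fgf2 in GENCODE M21. The strand setting of the quantification is not given in the sources used here, so reads of the pair may have been mixed. Nudt6 ranged from 5.6 to 7.38 in controls and from 5.42 to 7.39 in deleted uteri. Other members share exon bases too. Fgfr2 shares 314 bases with Ctbp2 on the same strand, which was 41.0, 42.8 and 39.0 in controls and 44.0, 38.5 and 49.7 in deleted replicates 1, 2 and 3, and so was also lowest in deleted replicate 2. Genes without a row of their own in the tables share 255 bases with Fgf2 on the same strand and, on the opposite strand, 123 bases with Fgf10, 164 with Fgfr1 and 998 with Fgfr3.

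Fgf7, also called keratinocyte growth factor, had values of 2.2, 2.13 and 2.42 in controls and 3.65, 1.56 and 2.95 in deleted replicates 1, 2 and 3. All deleted libraries thus lay outside the narrow control range, 2 above it and 1 below. Fgf9, which many epithelia and mesothelia make, did the same with 0.957, 1.36 and 1.21 in controls and 1.76, 0.647 and 1.61 in deleted uteri. The log2 changes were 0.15 (SE 0.23) for Fgf7 and 0.07 (SE 0.24) for Fgf9, with limma adjusted p of 0.967 and 0.989.

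Fgfr2, at a much higher level, was also lowest in deleted replicate 2. It was 56.3, 60.8 and 61.9 in controls and 81.8, 42.0 and 84.8 in deleted replicates 1, 2 and 3. Again 2 deleted libraries lay above and 1 below all controls, so that the mean change was small (log2 0.15, SE 0.26; limma adjusted p 0.972; exact permutation p 0.7). The SD of log2 values was 7.86 times as large in the deleted as in the control group for Fgfr2 and 6.85 times for Fgf7, where the median over all tested genes was 1.73. Without deleted replicate 2 these ratios were 0.505 and 2.56, and the median was 1.05. For Fgfr1 the ratio was 6.59, and 7.08 without that library.

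The log2 changes without deleted replicate 2 were 0.48 (SE 0.10) for Fgfr2, 0.40 (SE 0.15) for Fgf7 and 0.31 (SE 0.17) for Fgf9. None was called by limma: the adjusted p of Fgfr2 was then 0.145, and over all its alternatives it ranged from 0.145 to 0.9996. With that library left out, 5 of the 8 tested members had separate groups (Fgf7, Fgf9, Fgf10, Fgf18 and Fgfr2), against 31.7% of the 12531 genes then tested. Fgfr4, not tested, was then separate too, at 0.274 and 0.297 in deleted uteri and 0.542 to 0.676 in controls. Without deleted replicate 3, 4 of the 8 tested members had separate groups, against 30.3% of all tested genes.

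**Figure D2:**
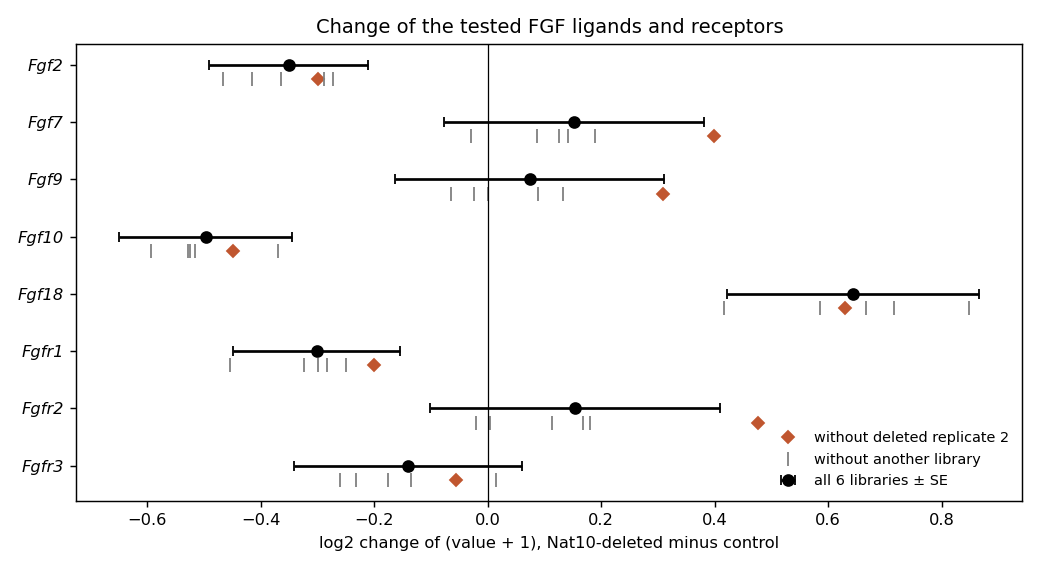
Log2 change of (value + 1), Nat10-deleted minus control, for the 8 tested genes, as black points with standard errors from all 6 libraries, with the value after leaving out deleted replicate 2 as orange diamonds and after leaving out each other library as grey ticks. Fgf10 has the most negative change (-0.50) and Fgf18 the most positive (0.64), and Fgfr2 moves from 0.15 to 0.48 without deleted replicate 2.

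Fgfr1, the main receptor of mesenchymal cells, was 23.6, 22.2 and 23.0 in controls and 17.1, 15.9 and 23.0 in deleted uteri. Deleted replicates 1 and 2 lay below the controls and replicate 3 within them. It changed by -0.30 on the log2 scale (SE 0.15, adjusted p 0.922 by limma, exact permutation p 0.2), by -0.45 without deleted replicate 3 and by -0.20 without deleted replicate 2. Fgfr3, which has roles in bone and epithelia, was 2.34, 1.28 and 1.57 in controls and 1.42, 1.17 and 1.77 in deleted uteri, and the groups overlapped (log2 change -0.14, SE 0.20). Fgfr4 was under 1 in every library and was not tested. Its values were 0.551, 0.676 and 0.542 across the controls and 0.274, 0.919 and 0.297 in deleted replicates 1, 2 and 3, so that it was highest in the library where Fgfr2 was lowest.

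**Figure D3:**
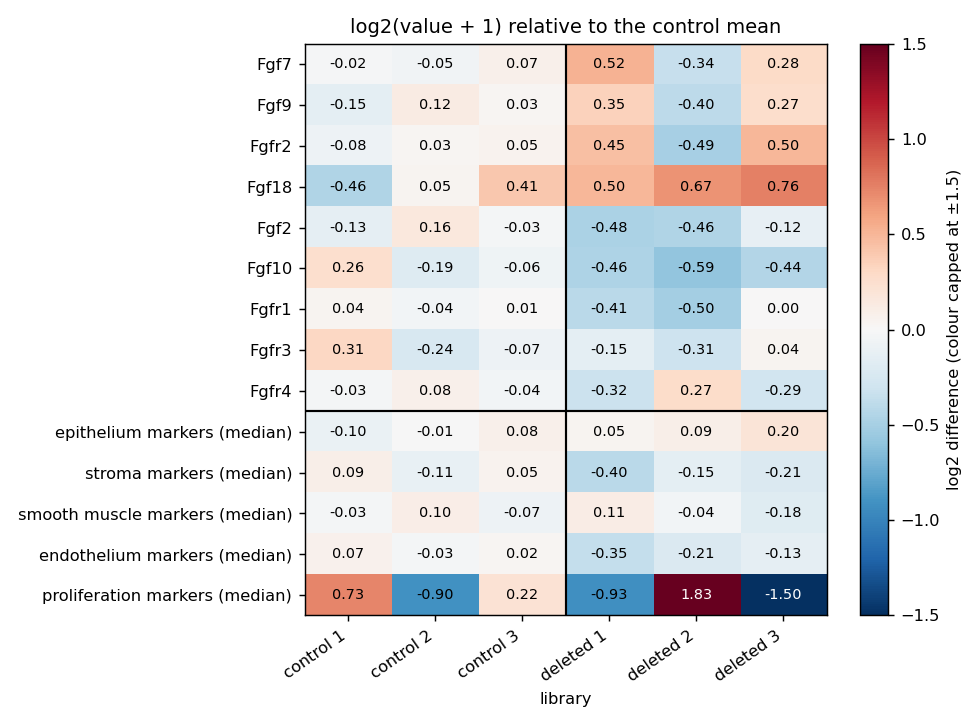
Each cell gives the log2(value + 1) of a gene (upper 9 rows) or the median over a marker list (lower 5 rows) in 1 library (columns), minus the control mean, with red for higher and blue for lower. Fgf7, Fgf9 and Fgfr2 are positive in deleted replicates 1 and 3 and negative in replicate 2, where the median of the proliferation markers is 1.83 against -0.93 and -1.5 in the other deleted libraries.

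The likeness of Fgf7, Fgf9 and Fgfr2 across libraries was described by correlating all 36 pairs of members over the 6 libraries. Fgf9 and Fgfr2 gave a Pearson r of 0.96 (exact permutation p 0.00556, adjusted over pairs 0.0875) and a Spearman rho of 0.89 (exact permutation p 0.0333, adjusted 0.2). Without deleted replicates 1 and 2, the libraries farthest from the median of Fgf9, r was 0.88. Fgf7 and Fgfr2 gave r = 0.94 (exact permutation p 0.00972, adjusted 0.0875) and rho = 0.89 (exact permutation p 0.0333, adjusted 0.2), and r = 0.95 without the same pair of libraries. Both leave-out values kept deleted replicate 3, where Fgfr2 was highest. Fgf7 and Fgf9 gave r = 0.92 (exact permutation p 0.0125, adjusted 0.09), and r = 0.71 without the same libraries. Their rho was 0.83 (exact permutation p 0.0583, adjusted 0.2625). Within the 3 controls alone r was 0.44 for Fgf7 and Fgfr2, 0.87 for Fgf9 and Fgfr2 and -0.06 for Fgf7 and Fgf9. No pair had an adjusted p under 0.05; the smallest, for Fgf7 and Fgfr4 (r = -0.97), was 0.05. After each group mean was subtracted, r was 0.94 for Fgf7 and Fgfr2, 0.97 for Fgf9 and Fgfr2 and 0.92 for Fgf7 and Fgf9. The proliferation markers were high where Fgfr2 was low in the deleted group. The summed epithelial markers were 1119, 971 and 1330 in deleted replicates 1, 2 and 3 and 1003 to 1093 in controls, with 8 of 10 epithelial genes higher on average and none called. For 2 of them, Epcam and Cldn7, the deleted values were higher without overlap (20%, against 6.12% of all tested genes). Their median log2 deviation from the control mean did not have this order, at 0.05, 0.09 and 0.20 in deleted replicates 1, 2 and 3 and -0.10 to 0.08 in controls. The part of either in the Fgfr2 values was not tested.

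Outside the 9 genes, the tested genes most like each member over the 6 libraries were taken as the 2 with the highest Pearson r on log2(value + 1), as a description without a test. Fgf10 was most like Amdhd2 and Plpp7 (r = 0.992 and 0.988), and Fgf18 most like Glcci1 (0.992) and Klk10, a kallikrein-related peptidase gene (0.981). Fgfr2 was most like Prtg and the ferritin heavy chain gene Fth1 (r = 0.996 and 0.995), Fgf7 most like the galectin gene Lgals4 and Wdr26 (0.994 and 0.992), and Fgf9 most like Plcd3 and Adora1 (0.996 and 0.992). Fgf2 was most like Glis2 and Gm16867 (0.989 for both), Fgfr1 most like the phosphodiesterase gene Pde4a and Jarid2 (0.996 and 0.994), and Fgfr3 most like Pde8a and Ube2h (0.981 and 0.98). With 6 libraries and 12632 candidates high values are common: 165 genes had an r above 0.95 with Fgfr2, 97 with Fgf7 and 10 with Fgf18.

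Composition within a library does not change when all its values are scaled by the same factor. Fgf18 made up 7.74%, 11.4% and 15.8% of the summed value of the 5 ligands in controls and 19.5%, 25.4% and 21.2% in deleted uteri, without overlap. The share of Fgf10 was lower without overlap, at 25.9%, 16.1% and 18.2% in controls and 14.8%, 14.8% and 13.1% in deleted uteri. The difference in its mean share, -5.83 percentage points, was -2.91 without control replicate 1. The share of Fgf2, whose own values overlapped between the groups, was also lower without overlap, with means of 55.5% ± 3.89 and 47.2% ± 3.56 (SD, n = 3). The Fgf10 to Fgf7 ratio, which compares the ligands of the epithelial receptor form, was 2.94, 2.10 and 2.07 in controls and 0.978, 2.02 and 1.23 in deleted uteri. Deleted replicate 2 lay only just below the controls in this ratio. Each of these 4 differences had an exact permutation p of 0.1, and 0.3 adjusted over the 12 shares and ratios computed. The ligand shares of a library are parts of the same sum. These differences are therefore not independent of each other or of the single values given above.

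Receptor shares overlapped between the groups. Fgfr2 made up 68.0%, 71.5% and 71.1% of the receptor sum in controls and 81.3%, 70.1% and 77.2% in deleted uteri (exact permutation p 0.3). Fgfr1 made up 28.5%, 26.2% and 26.5% in controls and 17.0%, 26.4% and 20.9% in deleted uteri (exact permutation p 0.2). The ligand sum was 26.8 ± 1.52 in controls against 24.3 ± 3.12 after deletion (SD, n = 3), and the receptor sum 84.9 ± 2.13 against 90.1 ± 26.5 (SD, n = 3), with exact permutation p of 0.3 and 0.8.

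**Figure D4:**
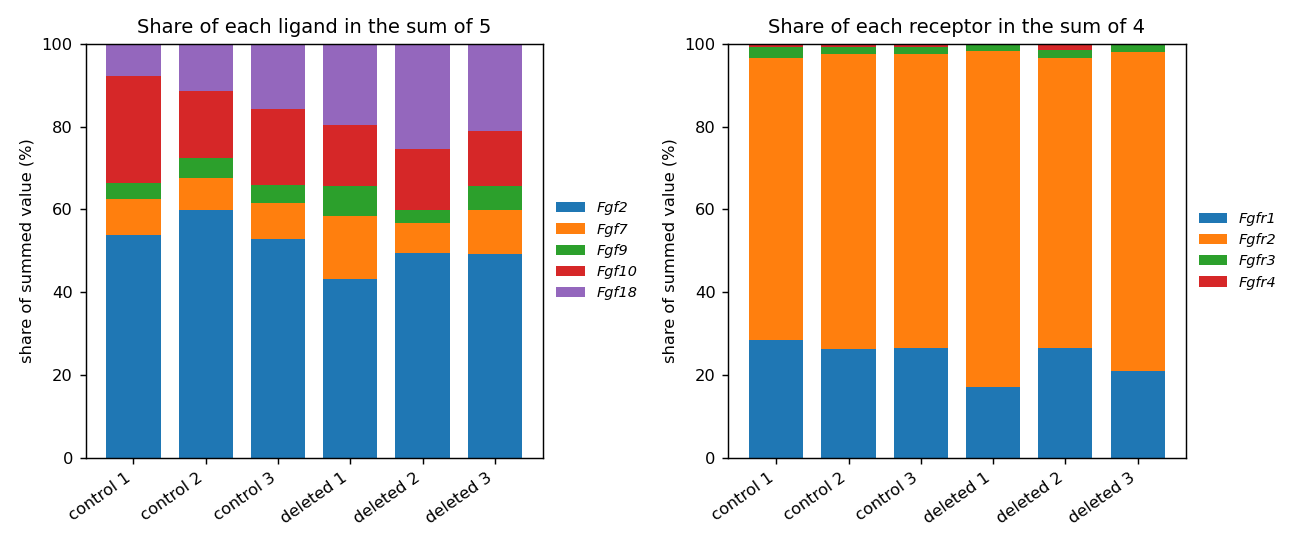
Stacked bars give the percentage of the summed FPKM-type value that each of the 5 ligands (left) and 4 receptors (right) held in each library. The Fgf18 share runs from 7.74% to 15.8% in controls and from 19.5% to 25.4% in deleted uteri, and Fgfr2 holds 68.0% to 81.3% of the receptor sum.

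Of the 22 FGF ligand genes listed, 9 passed the filter, 5 were listed at 0 in all 6 libraries and 8 were detected with no value above 0.66. Fgf1, acidic FGF, which binds all FGF receptors, was 5.76, 7.40 and 5.25 in controls and 4.56, 4.08 and 3.16 in deleted uteri. Its groups did not overlap, with a log2 change of -0.53 (SE 0.17, adjusted p 0.922 by limma), beside -0.50 for Fgf10. Fgf11 (log2 change -0.15) and Fgf13 (0.13), members of an intracellular group that does not signal through the receptors, overlapped between the groups.

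The other FGF pathway genes were read from 6 lists by role, of which 79 of 98 genes were tested and 0 were called. At an unadjusted p under 0.05 there were 5 (6.33%), 4 lower and 1 higher, against 4.98% of all tested genes. Groups did not overlap for 7 (8.86%), against 10.7%.

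Genes for heparan sulfate proteoglycans and the enzymes that shape their chains held 4 of these 7, all lower in deleted uteri, among 21 tested (19.0%), against 4.6% of all tested genes lower without overlap. Hs3st1, a heparan sulfate sulfotransferase gene, was 8.29, 8.33 and 9.0 in controls and 4.98, 5.83 and 5.82 in deleted uteri, with the smallest p of all pathway genes (log2 change -0.55, SE 0.11; limma adjusted p 0.806). Gpc3, a glypican gene, had means of 71.6 ± 9.84 (control) and 55.5 ± 3.03 (deleted), and Hspg2, which encodes the basement membrane proteoglycan perlecan, was 71.1 ± 0.364 and 55.9 ± 9.03 (SD, n = 3). Sulf1, an extracellular sulfatase gene named because it completes the count, had a log2 change of -0.28. The related Sulf2, named after its values were seen, was 62.2 in deleted replicate 2 and between 13.7 and 19.5 in the other 5 libraries. The median log2 change of the list was -0.04, with 14 lower and 7 higher on average, against 5486 lower and 7154 higher among all tested genes. Among 7 endothelial markers, whose cells also make perlecan, 7 were lower on average (median log2 change -0.25; summed values 257 to 287 in controls and 221 to 245 in deleted uteri). Their part in the Hspg2 value was not tested.

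Of 23 intracellular transducer genes, Nras was the only one without overlap (4.35%, against 6.12% of all tested genes higher without overlap). Its control mean was 19.7 ± 0.991 and its deleted mean 21.4 ± 0.536 (SD, n = 3). Mapk3, which encodes the kinase ERK1, had a log2 change of -0.16, with overlap. Co-receptor and carrier genes gave log2 changes of -0.25 (Flrt2), 0.06 (Flrt3) and -0.03 (Nrp1), also with overlap. Of 6 tested, 0 had separate groups, against 10.7% of all tested genes.

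Feedback inhibitors are here genes whose products dampen receptor or RAS-ERK signalling, some of them induced by it. They were lower on average in 11 of 14 cases, with a median log2 change of -0.07. Groups overlapped in all 14, where 10.7% of all tested genes had separate groups. By library the list median was -0.15 and -0.17 in deleted replicates 1 and 2 and 0.06 in replicate 3. Spred2 was 19.1, 20.1 and 27.5 in these libraries against 26.7 ± 1.35 in controls (SD, n = 3). Il17rd, which encodes the FGF antagonist Sef, was 6.56, 6.31 and 10.2 against 9.19 ± 0.549 (SD, n = 3). Dusp5, an ERK phosphatase gene, gave 3.31, 1.71 and 2.17 against 2.95 ± 0.152 (SD, n = 3). Spred2 and Il17rd were thus, like Fgfr1 and Fgf2, low in deleted replicates 1 and 2 and near the controls in replicate 3.

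Among target genes, the immediate early gene Fos was higher without overlap, at 1.80, 3.43 and 3.50 in controls and 5.62, 6.01 and 5.86 in deleted uteri (log2 change 0.84, SE 0.20; limma adjusted p 0.922). Myc had means of 54.5 ± 5.48 (control) and 43.8 ± 7.01 (deleted), and Egr1 15.6 ± 1.81 and 20.7 ± 6.85 (SD, n = 3), both with overlap. Dusp6 and Etv5, widely used as readouts of FGF-ERK activity, are named here after their values were seen. Dusp6 stayed between 16.5 and 17.6 in all 6 libraries (log2 change -0.01, SE 0.10), and Etv5 between 11.7 and 14.2 (-0.04, SE 0.11). Etv4, another of these readouts, was 2.09 in deleted replicate 2 and at most 0.853 elsewhere.

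**Figure D5:**
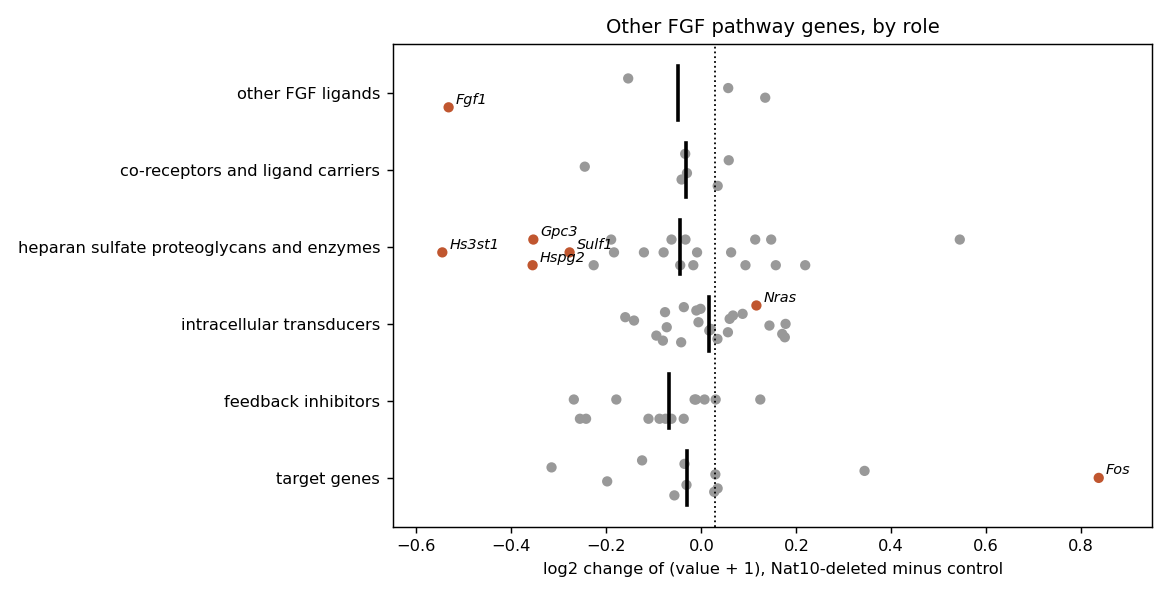
Each point is the log2 change of (value + 1), Nat10-deleted minus control, of 1 of the 79 tested pathway genes, in rows by role, with genes whose groups do not overlap in orange and named. Black bars are list medians, from -0.07 to 0.02, and the dotted line is the median of all tested genes, 0.03.

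The progesterone axis upstream of stromal FGFs was checked with the 2 genes Pgr and Hand2. Pgr, the progesterone receptor gene, was 73.8, 62.2 and 60.3 in controls and 35.3, 25.4 and 32.6 in deleted uteri, while Hand2 was 37.4 ± 1.69 and 35.4 ± 5.37 (SD, n = 3), with overlap. Of the stromal FGF genes known as Hand2-restrained, the deleted mean was higher for Fgf18 and Fgf9 and lower for Fgf1 and Fgf2. Groups overlapped for Fgf2 and Fgf9, and none of the 4 was called.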

How the data were processed

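Poly(A) RNA of whole uterus was sequenced in 6 libraries (3 per genotype) after TRIzol extraction and Illumina TruSeq library preparation, per the labels' protocols. HISAT2 2.2.1, Cufflinks 2.2.1 and build mm10 are named in the submitters' processing notes. The deposited values are taken as FPKM. This unit was inferred from the values and from Cufflinks, since no header names it. Annotation and strand setting are not given in the sources used here.

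The 6 tables were joined by gene. Genes reaching 1 in 3 or more libraries were tested on log2(FPKM + 1) with limma 3.58.1 in R 4.3.3 (eBayes with trend, group as the only term, Benjamini-Hochberg adjustment over 12640 genes). Fold changes on this scale understate those of low genes. Shares, ratios and single values were compared by exact two-sided permutation (scipy 1.17.1). The fit was tested on simulated data drawn with the same spread in both groups, and the outcome is not reported here. In the measured data the median SD ratio of deleted to control was 1.73, a setting the simulation did not cover. Members, lists and tests were chosen with earlier results of these data known. All 9 members are named, with the 3 smallest p of each pathway list (1 such gene is not reported here) and the 2 genes most like each member. Promoter letters come from RefSeq (GRCm38.p6), which held windows for all members but Fgfr1. Of the identifiers, 20558 matched GENCODE M21 and 79 did not. Alternatives were other scalings, filters, pseudocount and variance model, a replicate block, and leaving out each library.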

Additional observations from a re-analysis of the deposited data

How the results depend on the processing

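No member and no other FGF pathway gene was called by limma under any of the 14 alternatives. Over all genes tested, 12 were called without Nat10-deleted replicate 2 and 0 under the other 13. Fgf2 and Fgfr1 kept their direction under all 14. So did Fgf10 and Fgf18, whose separate groups fix it when a library is left out. Fgf10 ranged from -0.598 to -0.37 and Fgf18 from 0.416 to 0.849 on the log2 scale. The other directions turned, near 0, only when 1 library was left out. Leaving out each library in turn, Fgf7 ranged from -0.0302 (without deleted replicate 1) to 0.399 and Fgf9 from -0.064 (without deleted replicate 1) to 0.309, with -0.0237 without deleted replicate 3 and -0.0004 without control replicate 1. Fgfr2 ranged from -0.0209 (without deleted replicate 3) to 0.477, and Fgfr3 from -0.26 to 0.014 (without control replicate 1). The difference in the Fgfr3 share of the receptor sum, in percentage points, ranged from -0.653 to 0.0053 (without control replicate 1). That of the Fgfr4 share ranged from -0.423 to 0.207 (without deleted replicate 3), with 0.206 without deleted replicate 1 and 0.047 without control replicate 2. The cause was not tested. Fgf9 was not tested when every library had to reach 1. The count of tested members with separate groups was followed over the settings after the data were seen. It was 2 or 3 except without deleted replicate 2 (5) or 3 (4). The share of all tested genes with separate groups moved as well. It was 10.1% to 10.9% with all 6 libraries and 15% to 20.5% when another library was left out. Without deleted replicate 2 or 3 it was 31.7% or 30.3%.

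Deviations from the group means correlated at -0.341, -0.0287 and 0.1 between samples of replicate number 1, 2 and 3. Not every sample correlated best with its own number. These values gave no sign of pairing by number, but they cannot show whether samples shared a litter or batch. Adding the number to the limma fit as a replicate block gave 0 called genes and 0 called members, and 726 genes had an unadjusted p under 0.05 against 630. Unknown depth limits members near a value of 1 (Fgf9, Fgfr3, Fgfr4).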
